A study of Danio rerio with 16 samples.

Results

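The genes described here encode the proteins of the cytosolic ribosome. They were taken from the deposited table by symbol: every gene whose symbol begins with rpl or rps followed by a number, together with rpsa and the acidic stalk proteins rplp0 to rplp2, and without the rps6k kinases. This gave 67 of the 15304 genes in the table, 36 for the large and 31 for the small subunit, under 66 symbols because rps27.2 is listed under 2 identifiers (ENSDARG00000055475 and ENSDARG00000090186). Ribosomal protein genes outside this table or under other symbols were not analysed here.

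The ribosome is built from a large 60S and a small 40S subunit, each made of ribosomal RNA and many proteins that are needed in fixed proportions. The mRNAs of these proteins are short, abundant and, in vertebrates, begin with a terminal oligopyrimidine tract, a run of pyrimidines at the 5′ end through which their translation is controlled together with that of several translation factors. Teleost genomes hold duplicate copies of some ribosomal protein genes.

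RNA-sequencing was performed on whole brains of males and females from 4 zebrafish strains, all 17 weeks old and sexually mature. AB and SH (Scientific Hatcheries) came from commercial suppliers, whereas HSB (High Stationary Behavior) and LSB (Low Stationary Behavior) descended from wild-caught fish through selective breeding for behavior, and some of the HSB and LSB fish had been through a behavioral test weeks earlier. No fish carried a transgene or received a treatment according to the labels. Each of the 16 libraries was made from the pooled RNA of 10 fish of a single strain and sex, with 2 pools for each of the 8 groups, so that the spread between pools is a spread between means of different fish and the variation between single fish was not measured. In bulk tissue, fewer cells of a type and less RNA per cell cannot be told apart.

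The libraries held from 18398865 to 35737825 reads on genes, with a median of 28773428. Markers of neurons summed to between 6088 and 6814 CPM (counts per 1000000 reads on genes) in all libraries, and those of oligodendrocytes, blood, glia and microglia were also present, whereas pomca, a pituitary marker, was between 1.89 and 3.01 CPM. The sum of 5 skeletal muscle markers reached 1141 CPM in AB male pool 2. It was 14.4 to 82.5 CPM in SH, 26.2 to 101 in HSB and 51.9 to 244 in LSB. For 4 retina and pineal markers the sum ran from 3.7 CPM in HSB female pool 1 to 70.5 in AB female pool 2. The study left 1 LSB female library out of its network analysis as an outlier. The gene dio2, whose enzyme activates thyroid hormone, was between 42.1 and 76.7 CPM in the AB, SH and HSB females and between 110.0 and 197.7 CPM in their males. It was 127.6 CPM in the library labelled LSB female pool 2 and 40.1 CPM in the library labelled LSB male pool 2, which goes against both labels. The counts by sex are therefore given with and without these 2 libraries, and the order of values in LSB below follows the labels.

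The level of ribosomal protein mRNA differed between strains and was lowest in SH and highest in LSB. Values were compared as log2(CPM + 0.5), and for each library the shared level of the 67 genes was taken as the median over the genes of the deviation from the gene's own mean in all 16 libraries. In SH this shared level was -0.08 and -0.21 in the female pools and -0.25 and -0.35 in the male pools. In LSB it was 0.39 and 0.45 in the libraries labelled female and 0.17 and 0.03 in those labelled male. All 4 LSB libraries thus lay above all 4 SH libraries.

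The AB pools were at 0.01 and -0.07 in females and 0.10 and -0.06 in males. The HSB pools were at 0.12 and -0.17 in females and -0.01 and -0.06 in males. AB and HSB overlapped each other and lay between the other strains, with the lowest LSB library inside the AB and HSB range and the highest SH library above the lowest HSB library. The strain means were -0.22 ± 0.11 in SH, -0.03 ± 0.12 in HSB, -0.0048 ± 0.081 in AB and 0.26 ± 0.19 in LSB (SD, n = 4). SH and LSB differed by 0.48 on the log2 scale, or 1.40-fold. By the labels, the largest gap between 2 pools of the same strain and sex was 0.29, in HSB females. If the labels of the LSB pools numbered 2 were exchanged, 0.39 and 0.03 would share a group and lie farther apart. Pool 1 was above pool 2 in 7 of the 8 groups, LSB females being the exception, by a mean of 0.11 over the 8. The labels do not say what the pool numbers stand for.

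**Figure D1:**
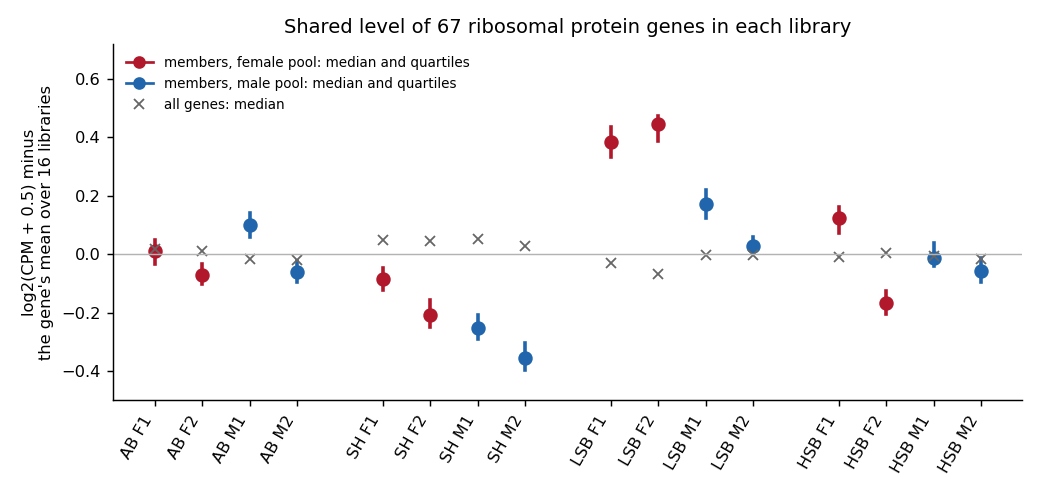
Shared level of the 67 ribosomal protein genes in each of the 16 libraries, as the log2(CPM + 0.5) deviation from each gene's mean; points are medians over the genes, bars their quartiles, crosses the median of all 15304 genes, F and M the labelled sex and the number the pool. The 4 LSB libraries sit between 0.03 and 0.45 and the 4 SH libraries between -0.35 and -0.08.

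As a share of all reads on genes, the 67 genes took 2.25% ± 0.18 in SH, 2.59% ± 0.22 in HSB, 2.65% ± 0.14 in AB and 3.18% ± 0.40 in LSB (SD, n = 4). The lowest share, 2.04%, was in SH and the highest, 3.58%, in LSB. In the libraries labelled LSB female pool 1 and LSB female pool 2, all 67 genes were above their own mean. In SH female pool 2 and SH male pool 2 none was.

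Each gene was then tested with limma on log2(CPM + 0.5), in a model of strain plus sex, and p-values were adjusted by the Benjamini-Hochberg method over all 15304 genes (threshold 0.05). The F test over strains called 66 of the 67 ribosomal protein genes, against 61.5% of all genes. The exception was rps27.2 (ENSDARG00000090186), with an adjusted p of 0.17. Because the 67 genes move together, their calls rest on the same 16 library levels and are not 67 separate results.

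Against the mean of the other 3 strains, 65 ribosomal protein genes were lower in SH and none was higher. Among all genes, 16.3% were lower and 31.1% higher in SH. The median difference was -0.29 for the ribosomal protein genes and 0.06 for all genes. By subunit, 35 of 36 large and 30 of 31 small subunit genes were lower. The exceptions were rps27.2 (ENSDARG00000090186) at -0.13 ± 0.09 and rpl6 at -0.11 ± 0.05 on the log2 scale (SE of the fit).

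In LSB, 64 ribosomal protein genes were higher and none was lower, where 13.5% of all genes were higher and 24.0% lower. The median difference was 0.34 for the ribosomal protein genes and -0.04 for all genes. Here 35 of 36 large and 29 of 31 small subunit genes were higher. The remaining 3 were rpl37 at 0.08 ± 0.05, rps25 at 0.12 ± 0.06 and rps27.2 (ENSDARG00000090186) at -0.01 ± 0.09 (log2, SE). The 4 strain contrasts are made from the same libraries and sum to 0, so a low level in SH and a high level in LSB are not independent of each other.

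AB and HSB differed little from the mean of the other 3 strains, which in both cases held the low SH and the high LSB. In AB, 1 ribosomal protein gene (rps8b) was higher and 3 (rps27a and RPL29 among them) were lower, against 11.2% and 12.4% of all genes. In HSB, 1 (rpl37) was higher and 2 (rpl19 among them) were lower, against 7.59% and 9.23%. The AB count depended on single libraries of every strain. It rose from 4 to 7 without the library labelled LSB female pool 2 or without both LSB pools numbered 2, and fell to 1 without AB female pool 2 and to 2 without any of AB female pool 1, AB male pool 2, LSB female pool 1, HSB female pool 1, HSB male pool 1, SH female pool 1, SH female pool 2 or SH male pool 1. The HSB count fell from 3 to 1 without HSB male pool 2. Shares of all genes in these reduced sets of libraries are not given here, so the counts only describe stability.

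Taken gene by gene, the order of the libraries was clear between the extremes only. For 60 of the 67 ribosomal protein genes all LSB libraries lay above all SH libraries, as they did for 13.4% of all genes. The 7 others included rps25, rps3a, rpl32, rpl38, rps23 and rps27.2 (ENSDARG00000090186). Only 5 genes (rpl4, rpl28, rps26 and rpl21 among them) had all LSB libraries above all 12 others, against 2.05% of all genes. For 10 genes (rpl37, rps8b, rps10, rplp2, rpl4, rpl35, rpl18, rpl13, rps18 and rpl21) all SH libraries lay below all 12 others, against 4.1% of all genes.

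**Figure D2:**
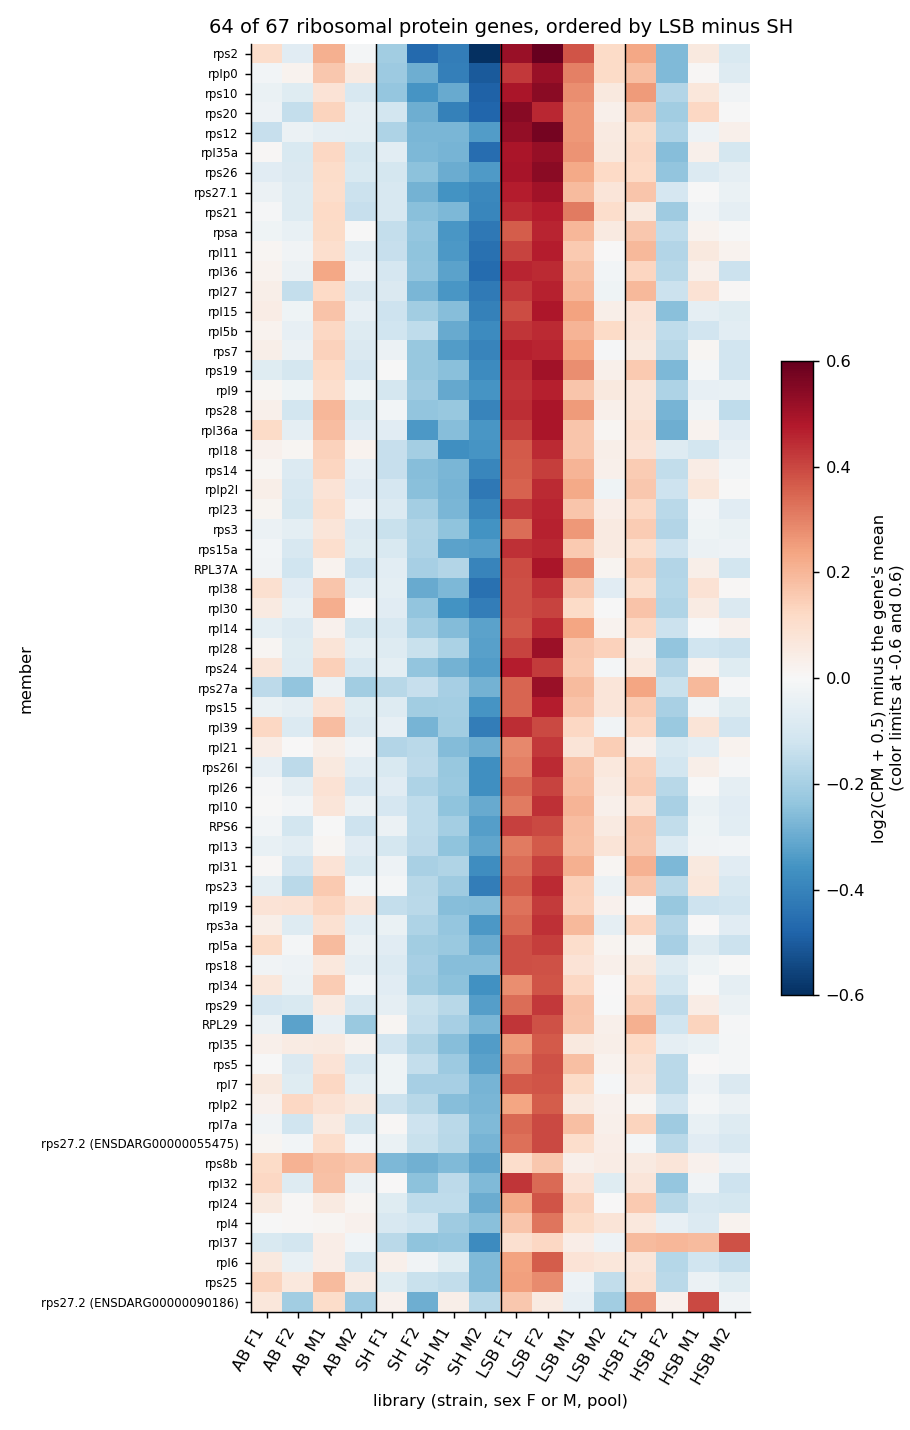
Of the 67 ribosomal protein genes, 64 (rows, ordered by the LSB minus SH difference) in the 16 libraries (columns), colored by the log2(CPM + 0.5) deviation from the gene's mean, with colors limited at -0.6 and 0.6. Most rows share the low SH and high LSB columns. In rpl37, rps8b, rps25 and rps27.2 (ENSDARG00000090186), near the bottom, LSB did not have the highest strain mean.

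In the 4 ribosomal protein mRNAs with the highest mean CPM all LSB libraries lay above all SH libraries, by differences that were not equally large. The gene rps2 encodes a 40S protein near the entry of the mRNA channel. It was at 1323, 1175, 1424 and 1221 CPM in AB, 1064, 890.1, 924 and 764 in SH, 1761, 1860.3, 1596 and 1333 in LSB and 1446, 1024, 1282 and 1153 in HSB (female pools 1 and 2, then male pools 1 and 2, here and below). Each SH value but that of female pool 1 lay below every value of the other strains. The difference was -0.59 ± 0.09 in SH (adjusted p = 0.00011) and 0.53 ± 0.09 in LSB (adjusted p = 0.00044; limma with Benjamini-Hochberg adjustment, log2 ± SE).

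The gene rpsa encodes a 40S protein also known as the laminin receptor precursor. Its levels were 1141, 1125, 1259 and 1160.0 CPM in AB, 1052, 989, 913 and 864 in SH, 1493, 1596, 1335 and 1205 in LSB and 1301, 1046, 1179 and 1158 in HSB. SH touched HSB only through HSB female pool 2. The differences were -0.38 ± 0.06 in SH and 0.36 ± 0.06 in LSB (log2 ± SE).

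For rpl4, a large subunit protein that lines the exit tunnel, the values were 748, 752, 755 and 762 CPM in AB, 699.7, 690.4, 645 and 630.1 in SH, 841, 937, 812 and 791 in LSB and 782, 724, 708 and 759.5 in HSB. The 3 sets SH, AB with HSB, and LSB did not overlap. The differences were smaller, at -0.23 ± 0.04 in SH and 0.23 ± 0.04 in LSB (log2 ± SE).

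The acidic proteins of the lateral stalk, which recruits translation factors to the large subunit, followed the same order. The stalk base rplp0 was at 1114, 1143, 1263 and 1169.6 CPM in AB, 968, 920.3, 847 and 794 in SH, 1512, 1613, 1392 and 1219.7 in LSB and 1278, 939.5, 1134 and 1068 in HSB. It was -0.48 ± 0.07 in SH (adjusted p = 9.1e-05) and 0.45 ± 0.07 in LSB (adjusted p = 0.00024; limma with Benjamini-Hochberg adjustment). The SH and HSB ranges overlapped.

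Its partner rplp2 was at 237, 254, 248 and 243 CPM in AB, 213, 208, 195 and 193 in SH, 275, 300.1, 243 and 237 in LSB and 235, 215, 231 and 227 in HSB. All SH values were the lowest, whereas LSB overlapped AB. The second copy, rplp2l, was at 173, 158, 179 and 162 CPM in AB, 158, 142, 139.5 and 125 in SH, 216, 231, 199 and 166 in LSB and 189, 155, 178 and 169 in HSB.

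To separate the shared shift from what single genes do, the shared level of each library was subtracted from every gene. The SD of a ribosomal protein gene over the 16 libraries then fell from a median of 0.22 to 0.06 on the log2 scale. A median of 93.9% of a gene's variance over the libraries was removed, and for 46 of the 67 genes more than 90% was. The range ran from -35.9%, for rps27.2 (ENSDARG00000090186), which was farther from the shared level than from its own mean, to 99.3%. Little or none was removed for rpl37 (-2.28%) and rps8b (10.4%) as well. These figures are a description, as the shared level was computed from the same genes.

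On this scale, relative to the ribosomal median, the F test over strains called 11 of the 67 genes, against 88.0% of all genes. The high background follows from the subtraction, which adds the shift of the ribosomal protein genes with reversed sign to all other genes. It also raises the spread that limma borrows for each gene from the others, so that the moderated residual SD of the ribosomal protein genes had a median of 0.09 where their own was 0.05. With the spread of each gene alone, an alternative added after the data had been seen, 40 of the 67 genes were called, the same 11 among them, against 85.7% of all genes. The 11 genes are therefore those with the largest departures, with a range between strain means of at least 0.20. The 29 further genes had ranges from 0.05 to 0.19 and the remaining 27 from 0.03 to 0.17. A gene outside the 11 is thus not shown to share the common level exactly.

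On the relative scale each strain was again set against the mean of the other 3. The values of a strain relative to the ribosomal median given below are these differences. The moderated test called 6 genes in SH and 6 in LSB, against 77.2% and 83.5% of all genes. It called 1 in HSB and 3 in AB, shares below the 5.93% and 7.85% of all genes. With the spread of each gene alone the counts were 24 in SH, 28 in LSB, 7 in HSB and 9 in AB, against 75.6%, 83.1%, 4.69% and 6.66%.

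**Figure D3:**
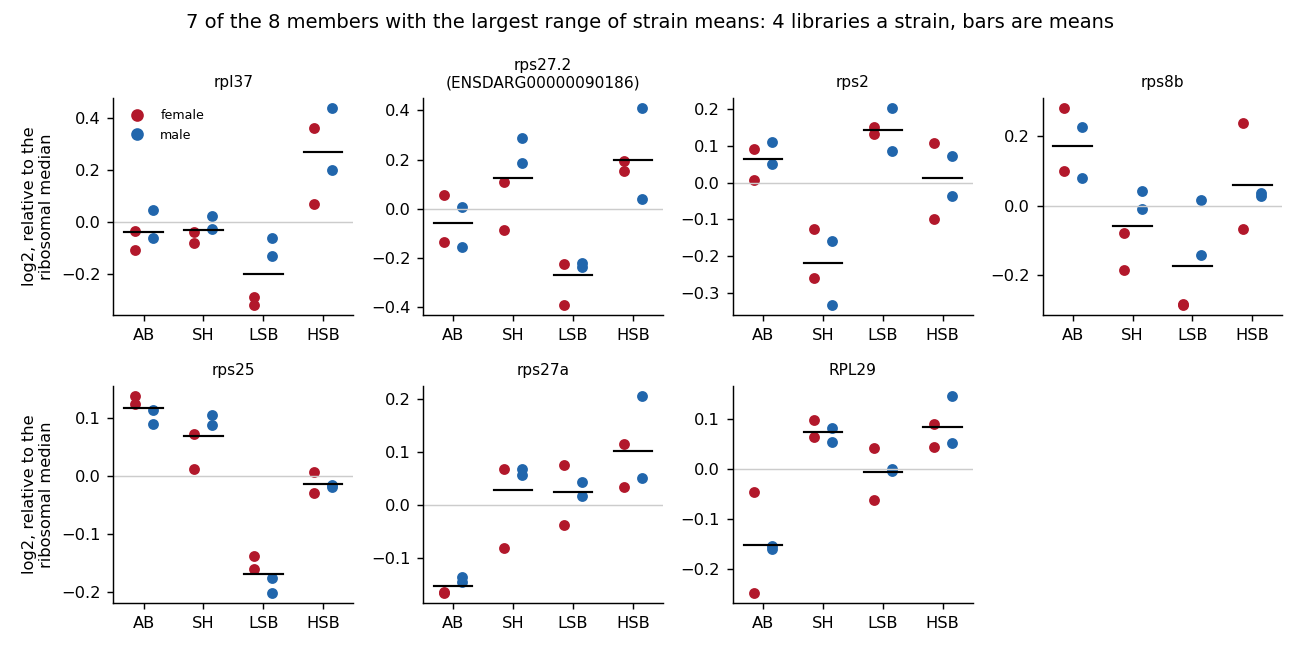
Log2 values relative to the ribosomal median, centered on each gene's mean, for 7 of the 8 ribosomal protein genes with the largest range of strain means; points are libraries colored by labelled sex, bars are means of 4 libraries, and the y ranges differ. The gene rpl37 was high in HSB, rps2 low in SH and rps25 low in LSB.

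The gene rpl37 (ENSDARG00000076360) encodes a zinc-binding protein of the large subunit. It was at 13.4, 13.3, 14.8 and 14.2 CPM in AB, 12.8, 12.04, 12.2 and 10.9 in SH, 15.4, 15.7, 14.8 and 14.02 in LSB and 16.5, 16.5, 16.4 and 18.9 in HSB, or from 260 to 533 reads. HSB lay above all other libraries and SH below all others. Relative to the ribosomal median, its difference from the other strains was 0.36 ± 0.08 in HSB (adjusted p = 0.0055) and -0.27 ± 0.08 in LSB (adjusted p = 0.0038, limma with Benjamini-Hochberg adjustment).

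The second entry of rps27.2 (ENSDARG00000090186), from a gene of the small subunit, was at 13.4, 11.01, 13.8 and 10.9 CPM in AB, 13.04, 10.4, 13.1 and 11.3 in SH, 14.4, 13.3, 12.4 and 11.01 in LSB and 15.6, 13.04, 17.01 and 12.6 in HSB, or from 240 to 552 reads. The strains overlapped throughout in CPM, and this entry did not follow the shift. Relative to the ribosomal median, its difference from the other strains was therefore -0.36 ± 0.08 in LSB (adjusted p = 0.0011, limma with Benjamini-Hochberg adjustment).

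The gene rps2, given above, departed the other way, since its swing was wider than the shared one. On the relative scale it was -0.29 ± 0.06 in SH (adjusted p = 0.0003) and 0.19 ± 0.06 in LSB (adjusted p = 0.0053, limma with Benjamini-Hochberg adjustment). The stalk base rplp0 was likewise -0.18 ± 0.05 in SH (adjusted p = 0.005) and rps10, a 40S protein, -0.16 ± 0.05 in SH (adjusted p = 0.014, same limma fit, 0.0502 without SH female pool 2). On this scale the call of the F test over strains held in 22 of 23 alternatives for rplp0 and in 15 for rps10.

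The gene rps8b, a copy of the 40S protein S8, was steady within strains. It was at 97.5, 104, 102 and 101 CPM in AB, 74.7, 73.8, 75 and 72.5 in SH, 96.9, 101, 92.01 and 93.01 in LSB and 93.7, 94.7, 91.7 and 88.3 in HSB. All 4 SH values lay below the others, AB lay above HSB, and LSB overlapped both. In CPM it was -0.38 ± 0.03 in SH (adjusted p = 1.9e-07) and 0.22 ± 0.03 in AB (adjusted p = 5.8e-05, limma with Benjamini-Hochberg adjustment), while relative to the ribosomal median it was -0.23 ± 0.08 in LSB (adjusted p = 0.0093) and 0.23 ± 0.08 in AB, where the adjusted p of 0.076 missed the threshold.

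The gene rps25, whose 40S protein is needed in yeast and mammalian cells for initiation at some viral internal ribosome entry sites, was at 347, 331, 360.5 and 327 CPM in AB, 301, 288, 285 and 263 in SH, 375, 385, 309 and 285 in LSB and 337, 283, 309 and 301 in HSB. The libraries labelled LSB male were inside the HSB range. Relative to the ribosomal median LSB was -0.23 ± 0.05 (adjusted p = 0.00096, limma with Benjamini-Hochberg adjustment), with all 4 LSB libraries below the 12 others on that scale.

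The genes rps27a and RPL29 were low in AB. The gene rps27a encodes ubiquitin fused to a 40S protein and was at 408, 386, 443 and 393 CPM in AB, 405, 413, 396 and 373 in SH, 578, 652, 518 and 478 in LSB and 536, 414, 520.2 and 453 in HSB. The AB and SH ranges overlapped in CPM. Relative to the ribosomal median AB was -0.20 ± 0.06 (adjusted p = 0.025, limma with Benjamini-Hochberg adjustment, between 0.0035 and 0.10 over 23 alternatives), and 5 of the 23 lost the call, namely those without a single AB library or without SH female pool 2.

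The large subunit gene RPL29 was at 196, 161, 194 and 172 CPM in AB, 203, 182, 175 and 166 in SH, 270.3, 262, 226 and 205 in LSB and 233, 185, 221 and 200.2 in HSB. AB overlapped SH and HSB. Relative to the ribosomal median AB was -0.20 ± 0.06 (adjusted p = 0.036, limma with Benjamini-Hochberg adjustment, between 0.0031 and 0.17 over 23 alternatives), and 11 of the 23, each without 1 library of any strain, lost the call. In contrast rpl6, a large subunit gene, was at 0.19 ± 0.05 relative to the ribosomal median in SH (log2 ± SE, adjusted p = 0.0045, same limma fit). Its difference in CPM there was -0.11 ± 0.05 and missed the threshold.

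Paralogs of a family were compared with each other as log2 ratios of CPM + 0.5, in which a shift that both copies follow cancels. There were 5 families with 11 genes, and 4 of the families are described. These ratios are descriptions of the libraries, without a test of their own. How reads that match near-identical copies were counted may affect the ratios and was not examined. The ratio of rpl5b to rpl5a, copies of the protein that binds 5S ribosomal RNA, was -0.02 ± 0.03 in AB, 0.00042 ± 0.064 in SH, 0.11 ± 0.04 in LSB and 0.07 ± 0.05 in HSB (SD, n = 4). All LSB ratios lay above all AB ratios.

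The ratio of rplp2 to rplp2l was 0.55 ± 0.11 in AB, 0.52 ± 0.08 in SH, 0.38 ± 0.09 in LSB and 0.40 ± 0.07 in HSB. These ranges overlapped.

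The ratio of rps26l to rps26, copies of a 40S protein near the mRNA exit, was 0.04 ± 0.05 in AB, 0.10 ± 0.05 in SH, -0.04 ± 0.07 in LSB and 0.14 ± 0.05 in HSB. LSB did not overlap SH or HSB. The levels behind it were 183, 189, 152 and 141 CPM for rps26 and 167, 185, 153 and 141 CPM for rps26l in LSB, and 141, 110.0, 122 and 125 and 149.5, 125, 138 and 135 CPM in HSB.

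The ratio of rps27.1 to rps27.2 (ENSDARG00000055475), copies of a zinc finger protein of the small subunit, split the strains into the commercial and the wild-derived ones. It was 0.29 ± 0.05 in AB and 0.22 ± 0.06 in SH, against 0.44 ± 0.05 in LSB and 0.44 ± 0.06 in HSB, and these pairs of strains did not overlap. The levels in SH were 380.4, 335, 318 and 312 CPM for rps27.1 and 312, 292, 285 and 264 CPM for rps27.2, and in LSB 565, 578, 464 and 428 and 403, 421, 344 and 329.5 CPM. The split was seen in the values and has no test.

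The second rps27.2 entry was far lower, and the ratio of rps27.1 to it was 4.97 ± 0.10 in AB, 4.76 ± 0.17 in SH, 5.26 ± 0.09 in LSB and 4.77 ± 0.16 in HSB, with LSB above all others. This entry did not follow the shared shift, which therefore stays in the ratio.

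**Figure D4:**
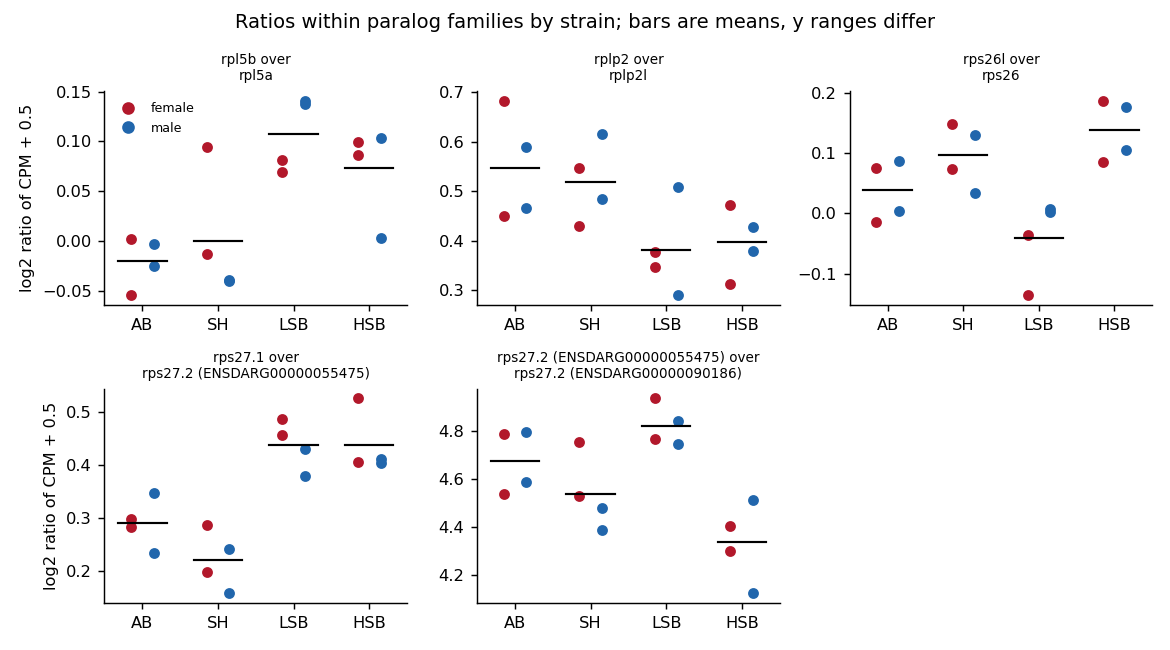
Log2 ratios between paralogs by strain; points are libraries colored by labelled sex, bars are means of 4 libraries, and the y ranges differ. The ratio of rps27.1 to rps27.2 (ENSDARG00000055475) lay at 0.35 or below in AB and SH and at 0.38 or above in LSB and HSB.

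Other gene lists differed by less between the same strains. In SH against the other strains, the median difference was -0.09 for 23 other genes known in mammals to carry a terminal oligopyrimidine tract (10 lower, 3 higher) and -0.03 for 57 ribosome biogenesis genes (19 lower, 7 higher). It was 0.03 for 69 mitochondrial ribosomal protein genes (8 lower, 6 higher) and -0.03 for 87 oxidative phosphorylation subunits (20 lower, 8 higher). Among all genes 16.3% were lower and 31.1% higher in SH. The 8 lower mitochondrial ribosomal protein genes, 11.6% of their list, were below that share. In LSB, the medians of these lists were 0.16 (12 higher, 1 lower), 0.06 (15 higher, 8 lower), 0.08 (20 higher, 3 lower) and 0.14 (28 higher, 5 lower). There 13.5% of all genes were higher and 24.0% lower.

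Short abundant genes outside the family were taken as those with a gene span of at most 11801 bases and a mean of at least 156 CPM, limits within which most ribosomal protein genes fall. Of these 293 genes, 129 (44.0%) were lower and 42 (14.3%) higher in SH, against 16.3% and 31.1% of all genes. In LSB 108 (36.9%) were higher and 27 (9.22%) lower, against 13.5% and 24.0%. The medians were -0.07 in SH and 0.07 in LSB. The shared level of LSB exceeded that of SH by 0.48 for the ribosomal protein genes, 0.19 for the other terminal oligopyrimidine genes and 0.11 for the short abundant genes, and by -0.07 for all genes. The span is that of the whole gene in the RefSeq annotation of GRCz12tu and not the length of the mRNA.

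**Figure D5:**
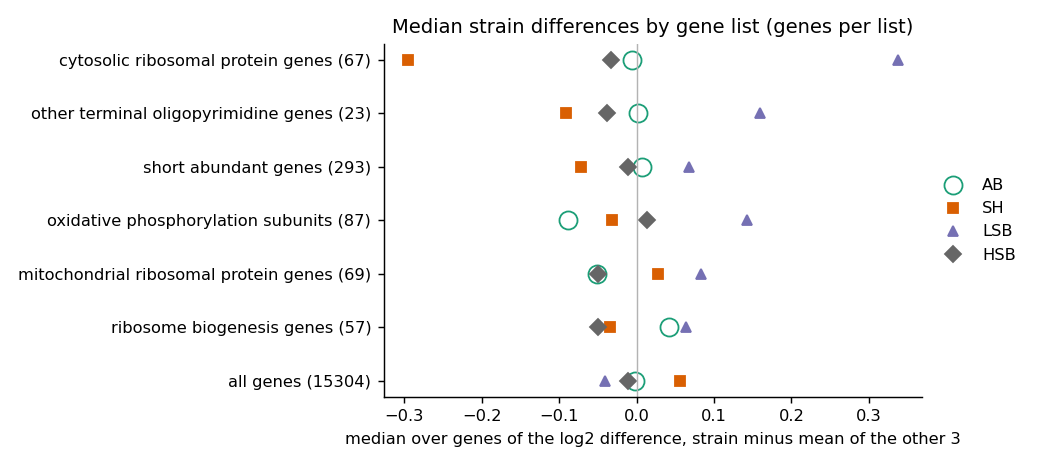
Median over each gene list of the log2(CPM + 0.5) difference between a strain and the mean of the other 3; the number of genes stands in brackets. The cytosolic ribosomal protein genes reach -0.29 in SH and 0.34 in LSB, and the short abundant genes -0.07 and 0.07.

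Within the terminal oligopyrimidine list, the 10 genes lower in SH, given with their values in LSB from the same libraries, included the subunits eef1g (-0.43 ± 0.05 in SH, 0.42 ± 0.05 in LSB), eef1da and eef1db of the exchange factor for elongation factor 1A. Elongation factor eef1a1l1 itself, at a mean of 3530 CPM, was at -0.32 ± 0.05 and 0.27 ± 0.05 (log2 ± SE). Also among the 10 were naca and btf3 of the nascent polypeptide-associated complex, gnb2l1 (RACK1, on the small subunit), eif3f and vim.

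Other genes of the list went the opposite way in SH or in LSB. The elongation factor genes eef1a1b (0.20 ± 0.04), eef1a2 (0.20 ± 0.05) and eef2a.1 (0.39 ± 0.12) were higher in SH. In LSB they were at -0.05 ± 0.04, 0.16 ± 0.05 and -0.29 ± 0.12, and only eef1a2 was called there, as higher. The gene npm1b, of a nucleolar protein, was lower in LSB at -0.23 ± 0.05 and at -0.03 ± 0.05 in SH (limma, log2 ± SE).

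Several measures were lower in SH and higher in LSB, as the shared level was, and their part in the result was not tested. The summed CPM of 5 oligodendrocyte markers, most of it from mbpa, was between 25859 and 31176 in SH, 36052 and 43542 in AB, 35129 and 43460 in HSB and 40721 and 51290 in LSB. That of 4 blood markers was between 1874 and 2259 in SH and 2822 and 4157 in LSB. Of the less abundant sets, 4 microglia markers summed to between 101 and 129 CPM in SH and 146 and 163 in LSB, but also to between 141 and 168 in HSB. For 3 markers of meninges and matrix the sums were 169 to 187 in SH, 174 to 194 in AB, 188 to 210 in HSB and 208 to 225 in LSB. For 4 proliferation markers they were 128 to 141 in SH, 136 to 157 in AB, 139 to 168 in HSB and 149 to 178 in LSB. The 10 most abundant genes of a library took from 7.35% to 7.94% of its reads in SH and from 8.97% to 10.5% in LSB. AB (8.36% to 9.63%) and HSB (8.37% to 9.31%) overlapped LSB. Neuron markers went the other way, with 6600 to 6713 in SH and 6088 to 6476 in LSB, which did not overlap. They were at 6257 to 6432 in AB and 6416 to 6814 in HSB. CPM are shares of a library, and with libraries rescaled by the median ratio of all genes the median difference of the ribosomal protein genes was -0.35 in SH and 0.38 in LSB.

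Between the sexes no ribosomal protein gene passed the threshold (limma with Benjamini-Hochberg adjustment, 0.0392% of all genes called), and 21 had an unadjusted p under 0.05, against 10.2% of all genes. Without both LSB pools numbered 2, whose labels dio2 goes against, none passed and 3 had an unadjusted p under 0.05, against 11.1% of all genes. All 67 were lower in libraries labelled male, with a median difference of -0.10 (log2), where that of all genes was -0.0019. Without both LSB pools numbered 2, 65 were lower and the median was -0.06. Without LSB, 63 were lower and the median was -0.04. Males minus females in the shared level gave 0.05 in AB, -0.16 in SH, -0.32 in LSB by its labels and -0.01 in HSB. Between the LSB pools numbered 1 alone it was -0.21. If the labels of the LSB pools numbered 2 were exchanged, the females would be at 0.39 and 0.03 and the males at 0.17 and 0.45. The LSB difference would then be positive. As the 67 genes move together, the counts by sex are not 67 separate results. Relative to the ribosomal median, which was computed from the same genes, 0 of the 67 had an unadjusted p under 0.05 for sex (limma). Of all 15304 genes, 1909 did on that scale, where the subtraction adds the reversed ribosomal shift to them. The count of 0 cannot show that no single gene departs by sex. On that scale the moderated residual SD of the 67 genes had a median of 0.09 where their own was 0.05. The spread of each gene alone was not used for sex. The median sex difference there was 0.005 for the ribosomal protein genes and 0.11 for all genes (log2).

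The smallest p for sex were those of 3 large subunit genes. For rpl35 the mean was 443 ± 58.2 CPM in libraries labelled female and 407 ± 40.3 CPM in those labelled male (SD, n = 8). The difference of -0.12 ± 0.04 had an adjusted p of 0.29 (limma with Benjamini-Hochberg adjustment, log2 ± SE). For rpl6 the means were 726 ± 86.8 and 661 ± 55.1 CPM, and for rpl18 441 ± 74.6 and 402 ± 54.7 CPM (SD, n = 8), with adjusted p of 0.31 and 0.34 in the same limma fit. The sexes overlapped in each case. Without both LSB pools numbered 2 the differences were -0.09 ± 0.03, -0.11 ± 0.04 and -0.09 ± 0.04 (log2 ± SE), with adjusted p of 0.33, 0.37 and 0.42 (limma). The sex by strain interaction called none of the 67 genes, against 0.0327% of all genes, and 25 had an unadjusted p under 0.05, against 16.6% (limma). Without both LSB pools numbered 2 it called none, and 4 had an unadjusted p under 0.05, against 8.88% of all genes. Without the library labelled LSB female pool 1 the interaction called 1 gene, and the share of all genes in that fit is not given here.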

How the data were processed

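The libraries were made by the authors with the TruSeq RNA kit from pooled total RNA, and the reads were aligned by the authors to Zv9 (release 71) with GSNAP and counted per gene with HTSeq in union mode. The submitters' processing notes also name CASAVA 1.7 and edgeR. The deposited values are CPM of protein-coding genes, which the authors scaled to a sum of 1000000 per library with no further scaling between libraries. CPM are shares, so a change of a few abundant genes moves all others. How reads that map to several copies were treated is not given in the sources used here beyond the default settings. The depth was read from the values, 100% of which were whole multiples of a single read in each library (tolerance 0.1 reads), and only describes precision. It was not used for count tests, since the filtered table holds few low values. All 16 columns were assigned by strain, sex and pool number, and none belonged to other samples.

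All 15304 genes entered the limma fits (version 3.58.1, R 4.3.3) without a filter, as log2(CPM + 0.5) in a model of strain plus sex. The moderated variance followed a trend with mean level, and Benjamini-Hochberg adjustment covered every gene. Fold changes are on the log2(CPM + 0.5) scale, which understates those of low genes. The relative scale subtracted each library's shared ribosomal level from every gene. Python 3.11.15 with numpy 2.4.6 and pandas 2.3.3 gave the other values, and matplotlib 3.10.9 the plots. The fits were tested on simulated data (seed 1), which led to the added alternative with the spread of each gene alone. The other alternatives were pseudocounts of 0.1 and 1, a mean CPM of at least 1, rescaling by the median ratio, leaving out each library or both LSB pools numbered 2, and the replicate block.

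Named genes were the 8 with the largest range of strain means among those called relative to the ribosomal median, all members of paralog families, the 4 most and 4 least abundant genes, the 3 with the smallest p for sex, the stalk proteins and rpsa. The genes rps10, rpl19 and rpl6 as a departure from the shared level, the genes listed as exceptions or by non-overlapping strains, and the genes of other lists were named after their values had been seen. Some of these genes are not reported here. The genes and lists were chosen with earlier results of these data known. Of 38 listed terminal oligopyrimidine genes 23, and of 79 listed ribosome biogenesis genes 57, were in the table. Gene spans came from RefSeq (GRCz12tu) and were matched for 66 of the 67 ribosomal protein genes and for 13702 of all genes. No coordinates are given because that build differs from Zv9.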

Additional observations from a re-analysis of the deposited data

Results flagged for a closer look

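Single libraries that stood apart from the other 3 of their strain were looked for in 48 groups of 4 libraries, in the shared level and in the 11 genes called relative to the ribosomal median. Chance flags about 1 in 20 such groups, and 2 stood apart. The second entry of rps27.2 (ENSDARG00000090186) was at -0.39 relative to the ribosomal median and its own mean in the library labelled LSB female pool 2, below the other 3 LSB libraries. The gene rps27a was at -0.081 on the same scale in SH female pool 1, below the other 3 SH libraries. The cause was not tested in either case.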

How the results depend on the processing

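The direction of the shared level in SH and LSB, and the counts of ribosomal protein genes called there, held under the other pseudocounts, the filter, the rescaling, the replicate block and the leaving out of libraries. Without 1 library at a time, 65 to 66 genes were called over strains, 59 to 66 in SH, 63 to 65 in LSB, 1 to 7 in AB, 1 to 3 in HSB, 0 for sex and 0 to 1 for the interaction. The shared level, strain minus the mean of the other 3, ran from -0.35 to -0.25 in SH and from 0.28 to 0.42 in LSB. In AB (-0.043 to 0.015) and HSB (-0.087 to 0.0094) it changed sign and has no direction. In AB, rescaling gave 2 genes and leaving out both LSB pools numbered 2 gave 7. For these settings the shares of all genes are not given here, so the counts only describe stability.

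Relative to the ribosomal median the counts were 11 over strains, 6 in SH, 6 in LSB, 1 in HSB and 3 in AB. Among all genes the shares were 88.0%, 77.2%, 83.5%, 5.93% and 7.85%. With the spread of each gene alone, added after seeing the data, the counts were 40, 24, 28, 7 and 9, against 85.7%, 75.6%, 83.1%, 4.69% and 6.66%. The number of single genes called thus depends on how the spread is estimated, and also on single libraries and on the replicate block. Without 1 library the counts with the moderated spread ran over 9 to 12, 4 to 7, 6 to 11, 1 to 2 and 0 to 5, with 11 in LSB without the library labelled LSB male pool 2. Shares of all genes without 1 library are not given here.

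Over all genes, pools of the same number did not deviate together: over 28 pairs of groups the correlation of their deviations ran from -0.22 to 0.31 with a median of 0.02, and 5 were over 0.1. In the shared level of the ribosomal protein genes, however, pool 1 was above pool 2 in 7 of 8 groups. The replicate block called 67 genes over strains and, relative to the ribosomal median, 5 in AB, 14 in LSB and 2 in HSB. As the shares of all genes in that fit are not given here, these counts show nothing particular to the ribosomal protein genes.

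The precision is limited by 2 pools per strain and sex. Transcript lengths were not used, so CPM of different genes are not levels that can be compared.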
